A study of Mus musculus with 8 samples.

Results

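Transcript levels of 10 integrin subunit genes were followed in stimulated mouse CD4+ T cells: Itgb8, Itgav and Itgb3, which belong to integrins that can activate TGF-beta, Itga4, Itgb7 and Itgae, which make the gut-homing and gut-retention integrins, and Itgb1, Itga6, Itgal and Itgb2, which serve adhesion. The genes were taken by name, and each was represented by its brightest transcript cluster with a single gene symbol. All 10 were found among the 22180 named genes of the arrays, and all 10 were bright enough to be tested. The study sorted CD4+CD25- T cells from spleens of C57BL/6 mice aged 6 to 8 weeks by their surface level of CD45RB, a CD45 isoform that T cells lose in part after they meet antigen. The 4 groups had 2 arrays each: CCR2-/- CD45RBlow, WT CD45RBlow, CCR2-/- CD45RBhigh and WT CD45RBhigh. CCR2-/- mice lack the receptor for the chemokine CCL2, the same background strain was given for both genotypes, and cells of all groups were stimulated through CD3 and CD28 by plate-bound antibodies. Stimulation lasted 48 h according to the sample protocols and 2 h according to the series design, no unstimulated cells were measured here, and no label says how many mice stand behind an array.

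Integrins are surface receptors made of an alpha and a beta chain, and both chains are needed for the pair to reach the surface. The pair of Itgav and Itgb8 binds the latent form of TGF-beta and releases the active cytokine, which regulatory T cells and dendritic cells of the gut are known to do. Itga4 pairs with Itgb7 to bind MAdCAM-1 on gut vessels and with Itgb1 to bind VCAM-1, Itgae pairs with Itgb7 to bind E-cadherin on epithelium, and Itgal pairs with Itgb2 to form LFA-1, the receptor for ICAM-1. Array values report transcript only, not surface protein or pairing.

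Values are log2 expression after RMA, so a difference of 1 is a doubling of signal. Array medians lay between 4.92 and 5.05, and a gene was tested where it reached an array's 40th percentile (4.53 to 4.63) on at least 2 arrays. Cd4 was at 11.54 to 11.74 on all arrays. Ccr2 was at 4.62 to 5.15 on the CCR2-/- arrays and at 4.26 to 4.61 on the WT arrays, near the 40th percentile. Because the deleted part of the gene is not known here, this does not check the genotype labels. Replicates 1 and 2 differed in sex-linked transcripts in every group: Xist, which marks female cells, was at 4.45 to 5.02 on replicate 1 arrays and at 11.74 to 12.07 on replicate 2 arrays. Kdm5d, a Y-linked gene, was at 8.83 to 9.13 on replicate 1 arrays and at 7.58 to 7.78 on replicate 2 arrays. It was above the 40th percentile on all arrays, so these transcripts do not settle the sex of the mice behind replicate 2. Replicate number and any sex difference cannot be told apart, and each effect below is therefore also given within replicate numbers or with the number as a block where that changes the call.

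Between CD45RBlow and CD45RBhigh cells, Itgb8 was the subunit that rose. Averaged over genotypes it rose 7.04-fold in CD45RBlow cells, while the other 9 subunits did not pass the test and their differences lay between -0.71 (Itga4) and 0.28 (Itgae) on the log2 scale. Limma called 1 of 10 subunits higher and 0 lower, against 1.10% of the 13508 tested genes called higher and 1.93% called lower (3.03% in either direction). The median log2 difference was -0.11 over the 10 subunits and -0.0078 over all tested genes. At an unadjusted p under 0.05, 4 of the 10 subunits and 2446 of all genes differed. With the replicate number as a block, 1 subunit rose and 2 fell (Itga4 and Itgb3), against 5.61% of all genes called with the block, 1.95% higher and 3.66% lower.

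**Figure D1:**
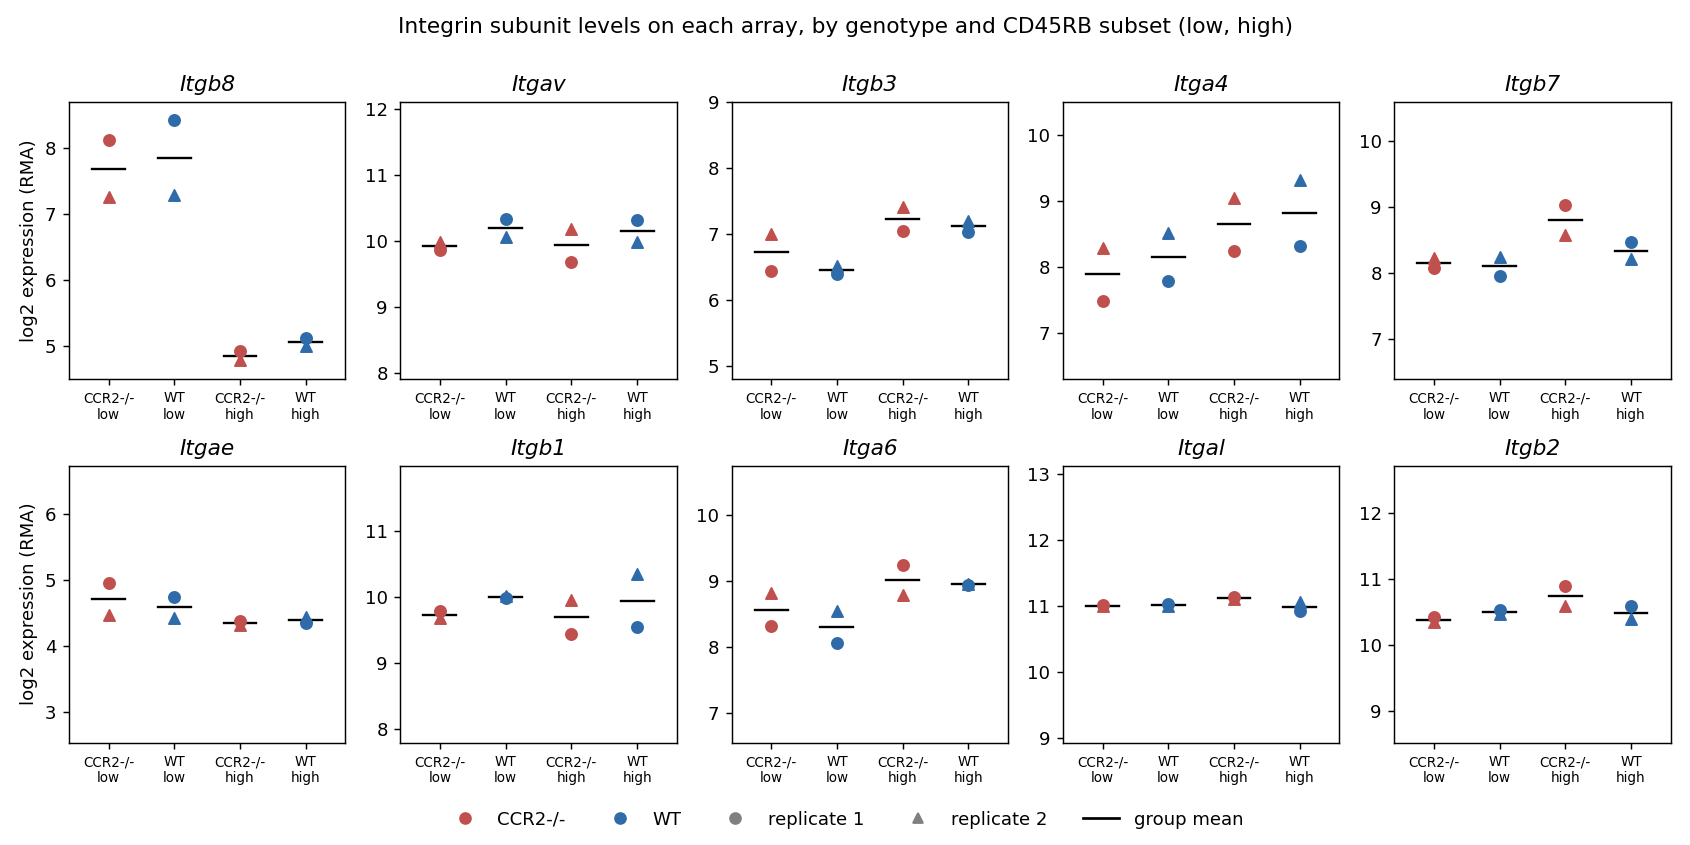
Log2 expression (RMA, y axis) of the 10 integrin subunits on each of the 8 arrays, by group (x axis), with circles for replicate 1, triangles for replicate 2 and a bar for the mean of a group. All panels span the same number of log2 units. Itgb8 lies between 7.25 and 8.42 on the CD45RBlow arrays, above its 4.79 to 5.13 on the CD45RBhigh arrays.

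Itgb8 encodes the beta chain that pairs only with Itgav. Its log2 level was 8.13 and 7.25 in CCR2-/- CD45RBlow cells, 8.42 and 7.30 in WT CD45RBlow cells, 4.93 and 4.79 in CCR2-/- CD45RBhigh cells, and 5.13 and 5.00 in WT CD45RBhigh cells (replicates 1 and 2). All 4 CD45RBlow arrays were above all 4 CD45RBhigh arrays, and replicate 1 was the higher array within every group. The averaged log2 difference was 2.82 (95% confidence interval 2.18 to 3.46, SE 0.27, limma adjusted p = 0.0060). By group mean the order was WT CD45RBlow at 7.86 ± 0.80, CCR2-/- CD45RBlow at 7.69 ± 0.62, WT CD45RBhigh at 5.06 ± 0.09 and CCR2-/- CD45RBhigh at 4.86 ± 0.10 (SD, n = 2 each). The 2 groups of CD45RBlow cells differed by less than their spread, which includes the shift between replicates. Within replicates 1 and 2, CCR2-/- minus WT was -0.29 and -0.04 in these cells. The arrays of the 2 groups of CD45RBhigh cells did not overlap, but their difference did not pass the test. In bulk RNA, fewer cells expressing a gene and less transcript per cell cannot be told apart.

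The rise of Itgb8 was of like size in both genotypes. In CCR2-/- cells the log2 difference was 2.84 (interval 1.93 to 3.74, limma adjusted p = 0.041), where 0.141% of tested genes were called higher and 0.192% lower (0.333% in all). In WT cells it was 2.80 (interval 1.89 to 3.70, limma adjusted p = 0.068, and adjusted p = 0.014 with the replicate number as a block), where 0.0444% of genes were called higher and 0.0444% lower (0.0888% in all), and with the block 0.281% higher and 0.489% lower (0.770% in all). The interaction, the CCR2-/- difference minus the WT difference, was 0.04 (interval -1.24 to 1.32, limma adjusted p = 0.9998). Without a block, the call in CCR2-/- cells was lost without CCR2-/- CD45RBlow replicate 1 (log2 2.40, limma adjusted p = 0.27) or replicate 2 (0.083), CCR2-/- CD45RBhigh replicate 1 (0.084) or replicate 2 (0.068), and WT CD45RBhigh replicate 1 (0.075) or replicate 2 (0.076). The averaged difference stayed between 2.53 and 3.10 and kept its call without any single array (limma adjusted p from 0.0074 to 0.030).

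RefSeq places Itgb8 on mouse chromosome 12 (GRCm38.p6, 119162803 to 119238276, minus strand) and Itga4 on chromosome 2 (79255426 to 79333114, plus strand); the build behind the array annotation is not given in the sources used here. Of the others, Itgav (83722303 to 83806917) and Itga6 (71786886 to 71858427) also lie on chromosome 2, and Itgb3 (104608000 to 104670476) and Itgae (73090505 to 73147449) on chromosome 11. In all, 5 of the 10 subunits had an entry in the RefSeq promoter table used here: Itgb8, Itgav, Itga4, Itgb7 and Itgb1. The 250 bases before the annotated start of Itgb8 are shown because this was the subunit that passed without a block, and those of Itga4 because it passed with the block and was lower in all 4 matched pairs. The Itgb8 window is chr12:119238277-119238526 on the minus strand and the Itga4 window is chr2:79255176-79255425 on the plus strand, both of GRCm38.p6 and written 5′ to 3′. Capitals mark matches to any of 9 short motifs searched on both strands.
Itgb8: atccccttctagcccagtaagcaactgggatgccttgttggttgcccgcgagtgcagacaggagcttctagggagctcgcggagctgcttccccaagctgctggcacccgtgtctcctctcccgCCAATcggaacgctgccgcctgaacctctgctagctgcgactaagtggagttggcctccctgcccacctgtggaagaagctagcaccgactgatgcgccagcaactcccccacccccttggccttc
Itga4: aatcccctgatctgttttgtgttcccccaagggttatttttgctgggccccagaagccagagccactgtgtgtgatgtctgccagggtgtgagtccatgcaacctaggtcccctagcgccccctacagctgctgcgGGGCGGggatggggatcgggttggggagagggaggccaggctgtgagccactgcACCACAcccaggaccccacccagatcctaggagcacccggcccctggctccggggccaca
The Itgb8 window held 1 match, the CCAAT box (CCAAT), which starts 126 bases before the start of the gene. The Itga4 window held a GC box (GGGCGG) that begins 114 bases before the start and, on the opposite strand, a RUNX motif (TGTGGT) that covers bases 60 to 55 before it. Of 32536 distinct promoter windows of the same length, 33.8% held a CCAAT box, 33.0% a GC box and 14% the RUNX motif. The AP-1 motif (TGANTCA, in 6.73% of windows), the CRE (TGACGTCA, 1.56%), the E-box (CACGTG, 6.04%), the AHR core (GCGTG, 28.3%), the ETS motif (CCGGAAG, 6.95%) and the TATA box (TATAAA, 12.3%) had no match in either printed window. The Itgb1 window held 1 match, a GC box, and the Itgav and Itgb7 windows held 0. The Itgav window (83724147 to 83724396) and the Itgb7 window (102231936 to 102232185, minus strand) lie inside their gene spans. The Itgb7 span runs from 102215994 to 102233405 on chromosome 15. These 2 windows therefore do not cover the bases before the outermost start of the gene. No motif overlapped another.

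Itgav, the alpha chain that Itgb8 needs, did not pass the test. Itgav was at 9.87 and 9.99 in CCR2-/- CD45RBlow cells, 10.33 and 10.05 in WT CD45RBlow cells, 9.68 and 10.19 in CCR2-/- CD45RBhigh cells, and 10.32 and 9.98 in WT CD45RBhigh cells. The lowest and the highest of the 8 arrays were 9.68 and 10.33, and the subsets overlapped. The averaged difference was 0.018 (interval -0.32 to 0.35, limma adjusted p = 0.97). A second, dim cluster of Itgav was at 4.56 to 4.77 on all arrays and differed by 0.066 between subsets.

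Itgb3, the other TGF-beta-associated beta chain, which pairs with Itgav in the vitronectin receptor, had a difference of the opposite sign that passed only under some settings. Its log2 level was 6.45 and 6.996 in CCR2-/- CD45RBlow cells, 6.40 and 6.51 in WT CD45RBlow cells, 7.05 and 7.41 in CCR2-/- CD45RBhigh cells, and 7.04 and 7.20 in WT CD45RBhigh cells. All CD45RBlow arrays were below all CD45RBhigh arrays, with 6.996 as the highest CD45RBlow and 7.04 as the lowest CD45RBhigh value. The averaged difference was -0.59 (interval -0.92 to -0.25, limma adjusted p = 0.081), and with the replicate number as a block it passed (adjusted p = 0.020). It also passed without CCR2-/- CD45RBlow replicate 2 (log2 -0.72, limma adjusted p = 0.049). Itgb3 is also an abundant platelet transcript. Of 4 measured platelet markers, 0 or 1 reached the 40th percentile on both arrays of a group, and their mean log2 level was 4.40 to 4.42 in CCR2-/- CD45RBlow, 4.31 to 4.46 in WT CD45RBlow, 4.27 to 4.44 in CCR2-/- CD45RBhigh and 4.36 to 4.38 in WT CD45RBhigh cells. Of these markers Pf4, Ppbp and Gp9 stayed under the 40th percentile on all arrays. The remaining marker, Itga2b, was at 4.43 to 4.77, on both sides of that percentile, and differed by -0.02 between subsets (limma adjusted p = 0.95). A part of platelets in the Itgb3 difference was not tested.

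Among the gut-homing subunits, Itga4 was lower in CD45RBlow cells in every matched pair of arrays. Itga4 was at 7.49 and 8.29 in CCR2-/- CD45RBlow cells, 7.78 and 8.52 in WT CD45RBlow cells, 8.25 and 9.05 in CCR2-/- CD45RBhigh cells, and 8.32 and 9.32 in WT CD45RBhigh cells. Replicate 2 was above replicate 1 in all 4 groups, by 0.73 to 0.997, so the subsets overlapped when the replicates were pooled. Within a genotype and replicate number, CD45RBlow minus CD45RBhigh was -0.76 and -0.76 in CCR2-/- cells and -0.54 and -0.80 in WT cells. The averaged difference was -0.71 (a fold of 0.61) and did not pass (interval -1.46 to 0.03, limma adjusted p = 0.30). With the block its interval narrowed to -0.90 to -0.53 and it passed (adjusted p = 0.0057). With the block it also fell within CCR2-/- cells (log2 -0.76, adjusted p = 0.031), where 0.526% of genes were called higher and 0.925% lower (1.45% in all), but did not pass within WT cells (log2 -0.67, adjusted p = 0.056). A cluster shared with the gene Cerkl was left out of the test; it was at 6.01 to 7.02 and differed by -0.42.

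Itgb7, which completes the MAdCAM-1 receptor with Itga4, varied less. Itgb7 was at 8.08 and 8.23 in CCR2-/- CD45RBlow cells, 7.96 and 8.24 in WT CD45RBlow cells, 9.03 and 8.58 in CCR2-/- CD45RBhigh cells, and 8.47 and 8.21 in WT CD45RBhigh cells. The CCR2-/- CD45RBhigh arrays were the highest 2 of the 8, and in WT cells the subsets overlapped. The share of all genes with such an order was not counted. The Itgb7 interaction was -0.42 (interval -1.03 to 0.19) and did not pass (limma adjusted p = 0.9998). The averaged difference was -0.44 (interval -0.75 to -0.14, limma adjusted p = 0.13, and 0.11 with the block), and within CCR2-/- cells it was -0.65 (interval -1.09 to -0.22, limma adjusted p = 0.21). The pairwise differences were negative in 3 of 4 pairs, with 0.04 in WT replicate 2.

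Itgae, the CD103 chain that retains T cells in epithelium, was close to the floor of the arrays. It was at 4.95 and 4.47 in CCR2-/- CD45RBlow cells, 4.74 and 4.42 in WT CD45RBlow cells, 4.37 and 4.31 in CCR2-/- CD45RBhigh cells, and 4.34 and 4.44 in WT CD45RBhigh cells. Only the replicate 1 arrays of the CD45RBlow groups reached the 40th percentile, and Itgae was tested only through these 2 arrays. The averaged difference was 0.28 (interval -0.02 to 0.58, limma adjusted p = 0.32). At such levels a difference in Itgae was not detectable here, which is not evidence that it was absent. CD8 T cells and dendritic cells also express CD103. Of the CD8 T cell markers, Cd8a was at 4.39 to 4.63 in CD45RBlow and at 4.51 to 4.91 in CD45RBhigh cells, and Cd8b1 at 6.97 to 7.38 and at 7.76 to 8.78 in the same order. Cd8b1 differed by -0.92 (limma adjusted p = 0.078) and passed with the block (adjusted p = 0.047). Cd8a differed by -0.18 and did not pass (limma adjusted p = 0.46, and 0.27 with the block). A part of such cells in the Itgae values was not tested.

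**Figure D2:**
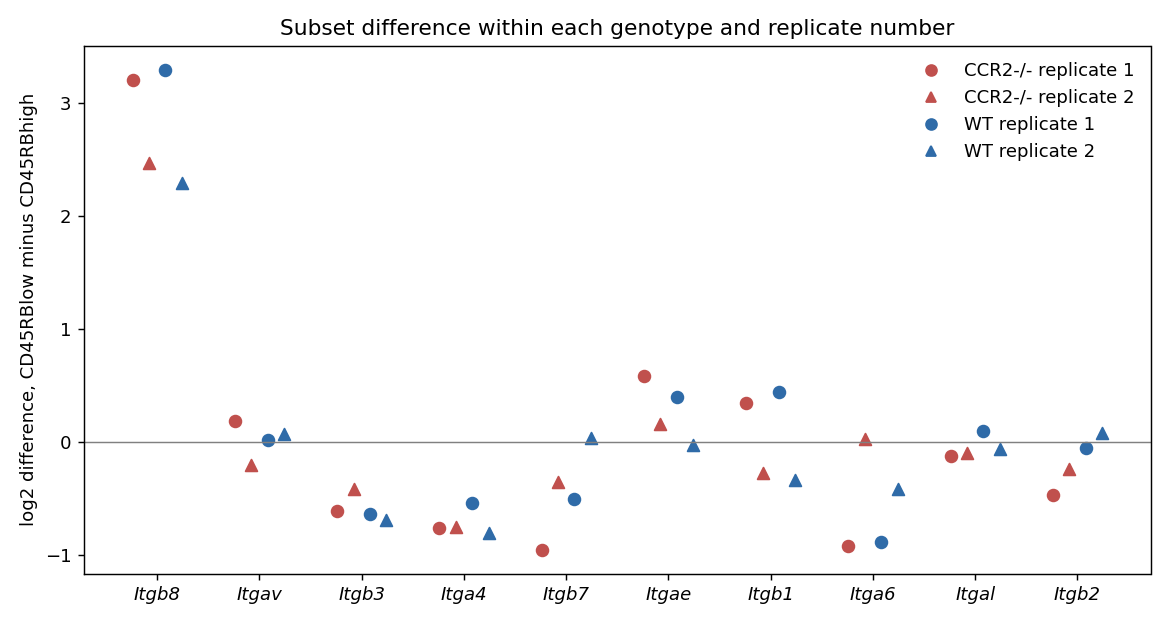
Log2 difference of CD45RBlow minus CD45RBhigh (y axis) for each subunit (x axis), computed within each genotype (colour) and replicate number (shape). Itgb8 is above 0 in 4 of 4 pairs, Itga4 and Itgb3 are below 0 in 4 of 4, and Itgb1 changes sign with the replicate number.

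The subunits of LFA-1 had high levels on all arrays, and neither passed the subset test. Itgal ranged from 10.93 (WT CD45RBhigh replicate 1) to 11.14 (CCR2-/- CD45RBhigh replicate 1) over all 8 arrays, with an averaged subset difference of -0.05 (interval -0.21 to 0.12, limma adjusted p = 0.82). Itgb2, its partner, was at 10.42 and 10.34 in CCR2-/- CD45RBlow cells, 10.53 and 10.47 in WT CD45RBlow cells, 10.89 and 10.58 in CCR2-/- CD45RBhigh cells, and 10.58 and 10.38 in WT CD45RBhigh cells. The CCR2-/- arrays separated by subset and the WT arrays did not, but the share of all genes separated in this way was not counted. The difference of Itgb2 was -0.36 in CCR2-/- cells (interval -0.68 to -0.03, limma adjusted p = 0.36) and 0.01 in WT cells (interval -0.31 to 0.34, limma adjusted p = 0.99). The interaction was -0.37 (interval -0.83 to 0.09) and did not pass the test (limma adjusted p = 0.9998).

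Itga6, the laminin-binding alpha chain that pairs with Itgb1, was at 8.32 and 8.81 in CCR2-/- CD45RBlow cells, 8.06 and 8.54 in WT CD45RBlow cells, 9.24 and 8.78 in CCR2-/- CD45RBhigh cells, and 8.94 and 8.96 in WT CD45RBhigh cells. The WT subsets did not overlap, and the CCR2-/- subsets did. The share of all genes separated in this way was not counted, so no result is read from it. The Itga6 interaction was 0.20 (interval -0.57 to 0.98) and did not pass (limma adjusted p = 0.9998). The averaged difference was -0.55 (interval -0.94 to -0.16, limma adjusted p = 0.14, and 0.11 with the block). Itgb1, the common partner of Itga4 and Itga6, was at 9.78 and 9.67 in CCR2-/- CD45RBlow cells, 9.98 and 10.01 in WT CD45RBlow cells, 9.44 and 9.95 in CCR2-/- CD45RBhigh cells, and 9.54 and 10.34 in WT CD45RBhigh cells. Its difference turned with the replicate number, with 0.34 and 0.44 in replicate 1 and -0.28 and -0.34 in replicate 2 of CCR2-/- and WT cells, and averaged 0.04 (interval -0.40 to 0.49, limma adjusted p = 0.95).

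Between genotypes, no subunit passed. Limma called 0 of 10 subunits and 0% of the 13508 genes for CCR2-/- minus WT, averaged or within either subset, and 0% for the interaction, with and without the block. At an unadjusted p under 0.05, 0 of 10 subunits and 521 of all genes differed in the averaged comparison. The averaged log2 differences of the subunits ran from -0.26 for Itgb1 (interval -0.70 to 0.19) to 0.26 for Itgb7 (interval -0.05 to 0.57). Itgb8 differed by -0.19 (interval -0.83 to 0.45) and Itgav by -0.24 (interval -0.57 to 0.10). These intervals leave room for changes of up to 0.83 for Itgb8, whereas for Itgal, at 0.06 (interval -0.11 to 0.23), and Itgb2, at 0.07 (interval -0.16 to 0.30), they are narrower. Within CD45RBhigh cells 1 of 10 subunits differed at an unadjusted p under 0.05, which was Itgb7 at log2 0.47 (interval 0.03 to 0.90) and which did not pass after adjustment (limma adjusted p = 1), and within CD45RBlow cells 0 did. Of all 13508 genes, 354 differed at that level within CD45RBhigh cells and 298 within CD45RBlow cells. In CD45RBhigh cells the arrays of the genotypes did not overlap for Itgb7 and Itgal (higher in CCR2-/-) and for Itgb8 (lower). In CD45RBlow cells they did not overlap for Itgav, Itgb1 and Itgb2 (all lower in CCR2-/-). The share of all genes separated in this way was not counted, so no result is read from it.

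**Figure D3:**
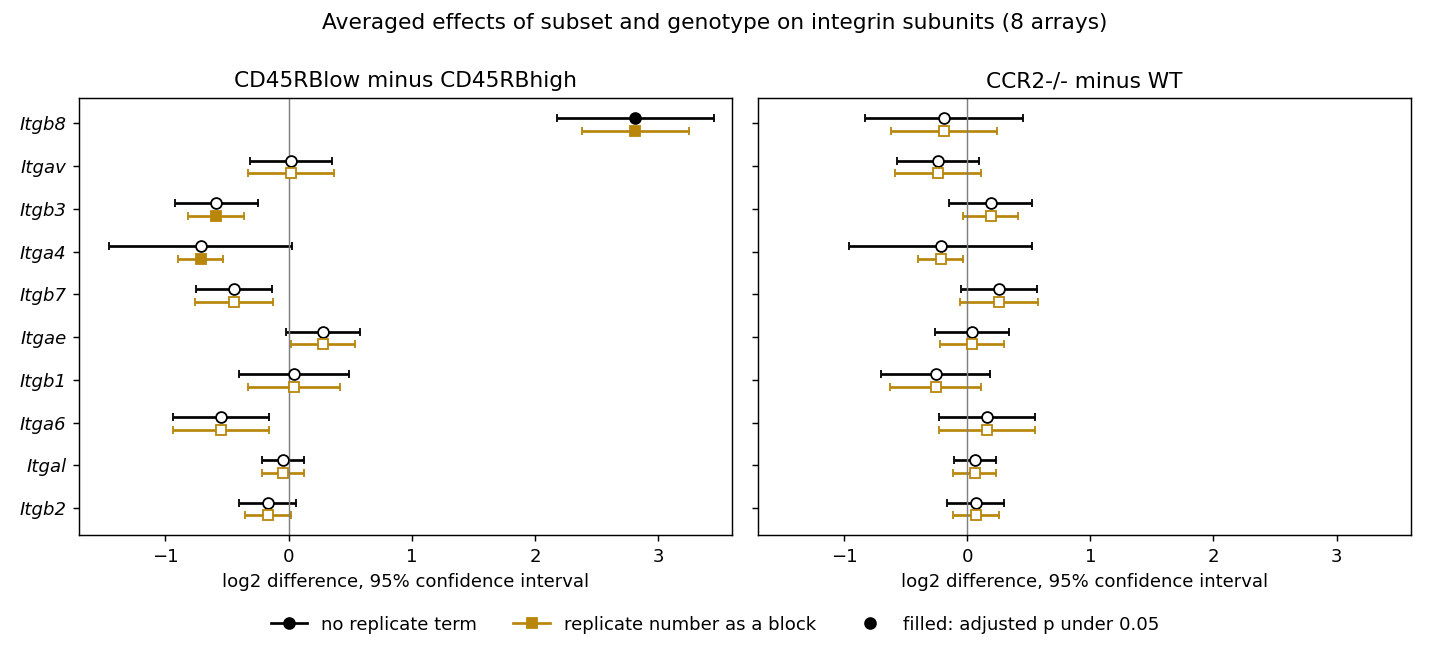
Log2 differences (x axes) with 95% confidence intervals for each subunit, CD45RBlow minus CD45RBhigh on the left and CCR2-/- minus WT on the right, each averaged over the other factor. Circles are from the fit without a replicate term and squares from the one with a replicate block, filled where the adjusted p is under 0.05: Itgb8 (2.82) in both fits, and Itga4 (-0.71) and Itgb3 (-0.59) with the block.

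The genes whose pattern over the 8 arrays was most like that of Itgb8 were Il10, an anti-inflammatory cytokine (r = 0.993), Il1r2, a decoy receptor for interleukin 1 (0.990), Prdm1, which encodes the transcription factor Blimp-1 (0.989), Foxp3, which specifies regulatory T cells (0.988), and Maf, a transcription factor that drives Il10 in T cells (0.987). They are the 5 highest of 12324 tested genes with a usual symbol. The arrays fall into the 2 sorted subsets, so these correlations mostly record the shared gap between subsets, and they are given without a test. Foxp3 was at 9.11 and 7.87 in CCR2-/- CD45RBlow cells, 9.14 and 8.44 in WT CD45RBlow cells, 5.88 and 5.31 in CCR2-/- CD45RBhigh cells, and 5.37 and 5.79 in WT CD45RBhigh cells. As with Itgb8, replicate 1 was the higher CD45RBlow array in both genotypes.

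**Figure D4:**
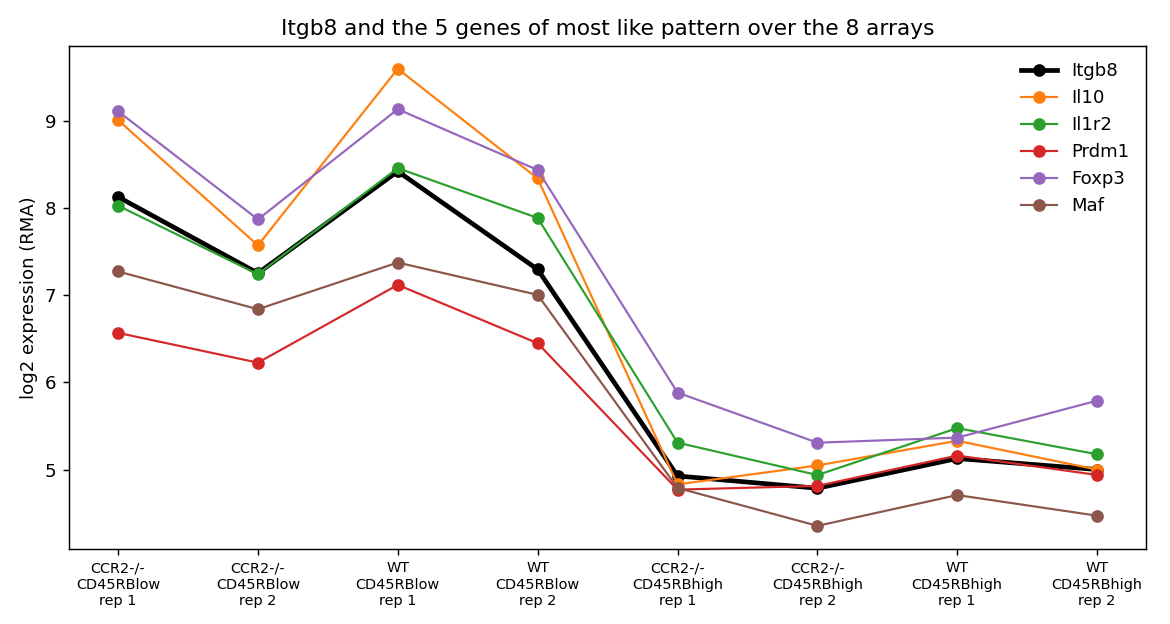
Log2 expression (RMA, y axis) of Itgb8 (thick line) and the 5 genes with the highest correlation to it, on each of the 8 arrays (x axis). All 6 genes are higher on the 4 CD45RBlow arrays than on the 4 CD45RBhigh arrays, and lower on replicate 2 than on replicate 1 within each CD45RBlow group.

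Of 9 tested markers of regulatory T cells 5 rose in CD45RBlow cells (Foxp3, Il10, Ikzf2, Gpr83 and Ctla4) and 0 fell, where 1.10% of all tested genes were called higher. The median log2 difference was 1.13 over the 9 markers, against -0.0078 over all genes. The other 4 did not pass: Lrrc32 differed by 1.10, Nrp1 by 0.42, Il2ra, the CD25 chain, by 0.10 and Tnfrsf18, which encodes GITR, by -0.16, with all 4 CD45RBlow arrays of Tnfrsf18 below all 4 CD45RBhigh arrays. Over all 9 markers the mean log2 level was 8.13 to 8.89 on CCR2-/- CD45RBlow arrays and 8.49 to 9.04 on WT CD45RBlow arrays. It was 7.09 to 7.32 on CCR2-/- CD45RBhigh arrays and 7.14 to 7.26 on WT CD45RBhigh arrays. A part of regulatory T cells in the Itgb8 difference was not tested. Dendritic cells also express Itgb8. Of 6 measured dendritic cell markers, 1 or 2 reached the 40th percentile on both arrays of a group, and their mean level was 4.50 to 4.58 on CD45RBlow arrays and 4.60 to 4.71 on CD45RBhigh arrays. Of these markers 2 were tested and 0 passed, and their part in the Itgb8 difference was not tested either. The 2 tested were Batf3, at a mean of 5.80 on CD45RBlow and 6.02 on CD45RBhigh arrays, and Zbtb46, at 4.64 and 5.06. Itgax, the CD11c chain of dendritic cells, was lower, at 3.93 to 4.14 on all arrays. Itgam, the CD11b chain of myeloid cells, was at 3.79 to 3.98. B cell markers were at a mean of 5.15 to 5.26 in CD45RBlow and 5.44 to 6.38 in CD45RBhigh cells. In the same order, macrophage and monocyte markers were at 4.55 to 4.64 and 4.56 to 4.91. NK cell markers were at 4.27 to 4.35 and 4.33 to 4.59, and neutrophil markers at 4.42 to 4.58 and 4.36 to 4.52. Of 5 tested B cell markers 1 fell and 0 rose, where 1.93% of all tested genes were called lower. The marker that fell was Ighm, at a mean of 9.76 and 10.79 (log2 -1.03, limma adjusted p = 0.013). Unlike Ighm, Cd79a, Cd79b, Ms4a1 and Cd22 were highest on the CD45RBhigh replicate 1 arrays. Cd79a was at 5.86 (CCR2-/-) and 4.99 (WT) there and at 3.77 to 4.24 on the other arrays. Cd79b was at 6.85 and 6.18 there and at 4.94 to 5.31 elsewhere. Between CD45RBhigh replicates of both genotypes, Itgb8, Itgb7 and Itgb2 were also higher on replicate 1, while Itga4, Itgb3 and Itgb1 were lower. Cd68, the 1 tested macrophage and monocyte marker, was at a mean of 7.22 on CD45RBlow and 7.75 on CD45RBhigh arrays. It differed by -0.53 (limma adjusted p = 0.29) and passed with the block (adjusted p = 0.024). No tested NK cell or neutrophil marker passed. Their part in the subset differences was not tested.

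Part of the TGF-beta receptor and signalling list was higher in CD45RBlow cells. Among 15 tested receptor and signalling genes 4 rose in CD45RBlow cells and 0 fell (5 rose with the block), where 1.10% of all genes were called higher and 1.95% with the block. Their median log2 difference was 0.09. Eng, which encodes the co-receptor endoglin, rose 1.56-fold (log2 0.64, limma adjusted p = 0.026). Pmepa1, a TGF-beta target that restrains SMAD signalling, rose 1.61-fold (log2 0.69, limma adjusted p = 0.029). Ski, a co-repressor of SMAD proteins, rose 1.49-fold, and Tgfbr3, the co-receptor betaglycan, 1.60-fold (limma adjusted p = 0.038 and 0.0497). Tgfbr1, the type I receptor, differed by 0.59 (limma adjusted p = 0.13) and passed with the block (adjusted p = 0.011). Tgfbr2, the type II receptor that binds the ligand, had a difference of the other sign that did not pass (log2 -0.45, limma adjusted p = 0.13). Of 6 tested genes of TGF-beta ligands, latency and activation, 0 passed. Lrrc32, which encodes GARP, the protein that holds latent TGF-beta on regulatory T cells, was at 6.65 and 5.02 in CCR2-/- CD45RBlow cells, 6.18 and 5.34 in WT CD45RBlow cells, 5.09 and 4.54 in CCR2-/- CD45RBhigh cells, and 4.51 and 4.64 in WT CD45RBhigh cells. It differed by 1.10 (interval 0.26 to 1.94, limma adjusted p = 0.16). Nrp1, which can bind latent TGF-beta, differed by 0.42 (limma adjusted p = 0.24), and the ligand gene Tgfb1, added for its role, by 0.07 (interval -0.12 to 0.26, limma adjusted p = 0.74).

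The counts of further lists stand beside 3.03% of all genes called in either direction, and 5.61% with the block. Of 12 measured further alpha subunits 5 were tested and 0 passed. Itga9 differed by 0.04 between subsets (limma adjusted p = 0.88) and Itga2, the collagen-binding chain, by 1.12 with a wide interval (-0.34 to 2.58, limma adjusted p = 0.41). None of 4 further beta subunit genes was bright enough to be tested. Among 18 tested activators and adaptors 1 fell and 0 rose, with 2 falling under the block, and 1 of 18 is near the share over all genes. That gene was Apbb1ip, which encodes RIAM, the adaptor that brings talin to integrins, and it was 1.60-fold lower in CD45RBlow cells (log2 -0.68, limma adjusted p = 0.038). Among 6 tested ligand genes Lamc1, a laminin chain, rose 1.96-fold (log2 0.97, limma adjusted p = 0.039). Among 11 tested homing receptors that are not integrins, Ccr4 (log2 1.004) and Cxcr3 (1.18) rose while Ccr7 (-0.94), the lymph node homing receptor, and Selplg (-0.41), the selectin ligand PSGL-1, fell (limma adjusted p from 0.0044 to 0.041). With the block 3 of the 11 rose and 2 fell. The further gene was Ccr6 (log2 0.98, limma adjusted p = 0.088, and 0.032 with the block). Limma called no gene of these lists between genotypes.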

How the data were processed

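The 8 single-colour arrays were hybridised with labelled cDNA from 200 ng of total RNA, per the labels' protocols. For 41034 transcript clusters the authors deposited log2 values. The submitters' processing notes name RMA and Partek, with no versions or options. They were used as deposited. Because RMA gives all arrays a common distribution, a shift of most genes together would be hidden. Gene names came from the platform annotation: 23521 clusters had 1 symbol, 1814 had several and were left out, and 15699 were unnamed here. The brightest cluster stood for a gene.

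Group means were estimated by limma 3.58.1 (R 4.3.3) for all 13508 tested genes and 8 arrays (4 residual and 3.36 prior degrees of freedom), with two-sided p-values adjusted by Benjamini-Hochberg over all tested genes and a threshold of 0.05. The median SE was 0.10 for averaged effects and 0.15 within a stratum. Precision is set by the number of arrays, which carry no depth. Groups came from the sample titles. A title ending in 2 was taken as replicate 2 and the others as replicate 1. No label names separate animals, so p-values measure the spread between these samples only. The difference of replicate 2 from replicate 1 correlated across genes at 0.11 to 0.53 over the 6 pairs of groups, above the limit of 0.1 set for pairing, so a replicate block is given where it changes a call.

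The subunits, lists and motifs were chosen with earlier results of these data known. All 10 subunits are named. From each list of further integrin, TGF-beta and homing genes up to 4 passing genes are named, or the 2 with the smallest p, along with the 5 genes most correlated with Itgb8 and with Itgae. Cell type markers, Tgfb1, Tgfbr1, Tgfbr2 and Ccr6 lie outside this rule and were named after their values were seen. In simulated arrays, the averaged subset comparison found 92 of 100 genes with a true difference of 1 log2 unit and 98 of 100 with 2, and made 14 false calls among 13308. This recovery need not apply to genes that shift with the replicate number, such as Itga4, whose SE without the block was 0.32. Alternatives covered the filter, the choice of cluster, the variance prior, array weights, scaling, the block and leaving out each array.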

Additional observations from a re-analysis of the deposited data

How the results depend on the processing

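With 2 arrays per group, calls within a genotype changed easily, while the averaged Itgb8 difference kept its call under all settings run. Of the 10 subunits, 1 was called for the averaged subset difference, 3 with the replicate block, 2 with median centring and 1 to 2 when single arrays were left out. Within CCR2-/- cells 1 was called, 2 with the replicate block, 0 with no filter or with array weights, and 0 to 1 when single arrays were left out. Within WT cells 0 were called, and 1 with the replicate block, the trended robust prior, array weights or median centring. The replicate block changed no call between genotypes or of the interaction. Itgb3 passed with median centring (log2 -0.57, limma adjusted p = 0.0498). Signs of differences that did not pass turned when single arrays were left out. For the subset effect this held for Itgav (-0.11 to 0.14) and Itgb1 (-0.16 to 0.24), and for the genotype effect for Itgb8 (-0.47 to 0.094), Itga4 (-0.47 to 0.033), Itgae (-0.042 to 0.16) and Itgb2 (-0.00945 to 0.15). Median centring turned the genotype difference of Itgae to -0.012. The cause of these changes was not tested. The fits that left out an array had no replicate block. Within replicates 1 and 2, CCR2-/- minus WT for Itgb8 was -0.29 and -0.04 in CD45RBlow and -0.20 and -0.21 in CD45RBhigh cells. For Itga4 it was -0.30 and -0.22 in CD45RBlow and -0.07 and -0.27 in CD45RBhigh cells. Itgae and Itgb2 had matched differences of both signs. With the block the Itga4 genotype difference was -0.22 (interval -0.40 to -0.03) and did not pass (limma adjusted p = 0.69). Itgae was left untested without either CD45RBlow replicate 1 array and under the 60th percentile filter, where it had too few values above the limit.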

Other observations

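Itga2, which with Itgb1 forms a collagen receptor, had an averaged subset difference of 1.12 that did not pass the test. It was at 8.23 and 8.61 in CCR2-/- CD45RBlow cells, 8.39 and 8.78 in WT CD45RBlow cells, 5.08 and 8.26 in CCR2-/- CD45RBhigh cells, and 7.61 and 8.56 in WT CD45RBhigh cells. The CCR2-/- CD45RBhigh replicate 1 array stood below the other 7, and replicate 2 was the higher array in every group.

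The genes most like Itgae over the 8 arrays were Adam1a (r = 0.959), Sfi1 (0.958), Trpm6 (0.953), Lhx6 (0.946) and Lrrc32 (0.945), none of which passed the averaged subset test. Itgae reached the 40th percentile on only 2 of the 8 arrays, so these correlations rest on those 2 arrays and on values near the floor. Lrrc32 and Itgae were both highest on the replicate 1 arrays of the CD45RBlow groups.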
